A study of Mus musculus with 4 samples.

Results

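The tRNA families for arginine (Arg), isoleucine (Ile), proline (Pro) and threonine (Thr) were chosen by name, with every position of their forward-strand coverage, because some of their tRNAs have inosine in the wobble position of the anticodon. They are 4 of the 23 families analysed here and hold 289 of the 1656 positions with coverage, 72 of them in Arg, 73 in Ile, 71 in Pro and 73 in Thr. Each family is a sum over all its isoacceptors, so members with and without inosine are counted together. RefSeq (GRCm38.p6, used for names only) lists 24 mouse tRNA-Arg genes, of which 6 have the anticodon ACG, beside 16 tRNA-Ile genes with 15 AAT. It lists 16 tRNA-Pro genes with 6 AGG, and 17 tRNA-Thr genes with 9 AGT. Inosine is made from the A that opens those anticodons, and the other genes of the families do not have it.

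Inosine at the wobble position arises after transcription, when the ADAT2-ADAT3 enzyme deaminates the adenosine, and it lets a tRNA read codons ending in U, C or A. tRNAs are also a source of small RNAs: ribonucleases such as angiogenin cut in the anticodon loop and leave a 5′ and a 3′ fragment, and cuts in the D or T loop leave shorter pieces. Dnmt2 methylates a cytosine beside the anticodon of tRNA-Asp, tRNA-Gly and tRNA-Val, a mark known to protect those tRNAs from such cutting; the families described here are not among its established substrates.

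Small RNA was sequenced from bone marrow of C57BL/6 mice at post natal day 8, in 2 wild type (WT) and 2 Dnmt2-/- libraries; no other allele or agent is given in the labels. The labels do not say whether animals were pooled or whether the libraries of a genotype came from separate mice. A p-value here thus reflects library-to-library spread, which may be technical. limma pools that spread in part or in full over families or positions. The RNA was end-repaired with T4 polynucleotide kinase, so fragments can enter the libraries whatever phosphate their ends carry. The tables hold tRNA coverage alone, so neither the loss of Dnmt2 transcript nor bone marrow markers could be checked in them. Positions were counted from 1 at the start of each family's table, and no source used here ties them to the standard tRNA numbering. Position 34, the wobble position in that numbering, was taken as the divide between the 5′ and the 3′ side. In bulk tissue, fewer cells of a type and less RNA per cell cannot be told apart.

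Coverage was deposited as a signal in units that differ by a constant per library, and every value was a whole multiple of 1 step, taken as 1 read. By that measure the highest positions of the 23 families summed to 423186 and 337091 reads in WT, and to 267920 and 220277 in Dnmt2-/-. The highest positions of the 4 families summed to 5843 and 5282 reads in WT and 2763 and 3581 in Dnmt2-/-. Their share of all summed coverage was 1.10% and 1.33% in WT and 0.897% and 1.47% in Dnmt2-/-. A count of 0 allows up to 3 reads per library, which is 1.97e-05 and 4.05e-05 units in WT and 3.94e-05 and 8.41e-05 units in Dnmt2-/-. Intervals and this limit describe counting error alone, because reads were not tagged with molecular identifiers and several can come from 1 molecule.

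The 4 families fell on different sides of the anticodon. Thr and Arg were covered mostly 3′ of it, Ile in 2 separate stretches near the 5′ end and in the middle of the molecule, and Pro mostly 5′ of it with a further stretch at the 3′ end. Positions 1 to 34 held 11.8% and 13.05% of the Thr coverage in WT and 7.39% and 12.2% in Dnmt2-/-. For Arg the same stretch held 18.3% and 17.9% in WT and 17.0% and 20.7% in Dnmt2-/-. The Ile libraries ranged widely, with 57.5% and 33.9% in WT and 40.3% and 27.8% in Dnmt2-/-, and WT replicate 1 was the only Ile library above 50%. Pro lay above 50% in every library, with 69.1% and 61.0% in WT and 58.8% and 55.1% in Dnmt2-/-. Ordered by their mean over 4 libraries among the 23 families, Pro ranked 10th (61.0%), Ile 15th (39.9%), Arg 19th (18.5%) and Thr 21st (11.1%). Of the related families with inosine members, Val (90.2%), Ser (83.3%) and Ala (81.8%) lay above all 4, and Leu (52.6%) lay between Pro and Ile.

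**Figure D1:**
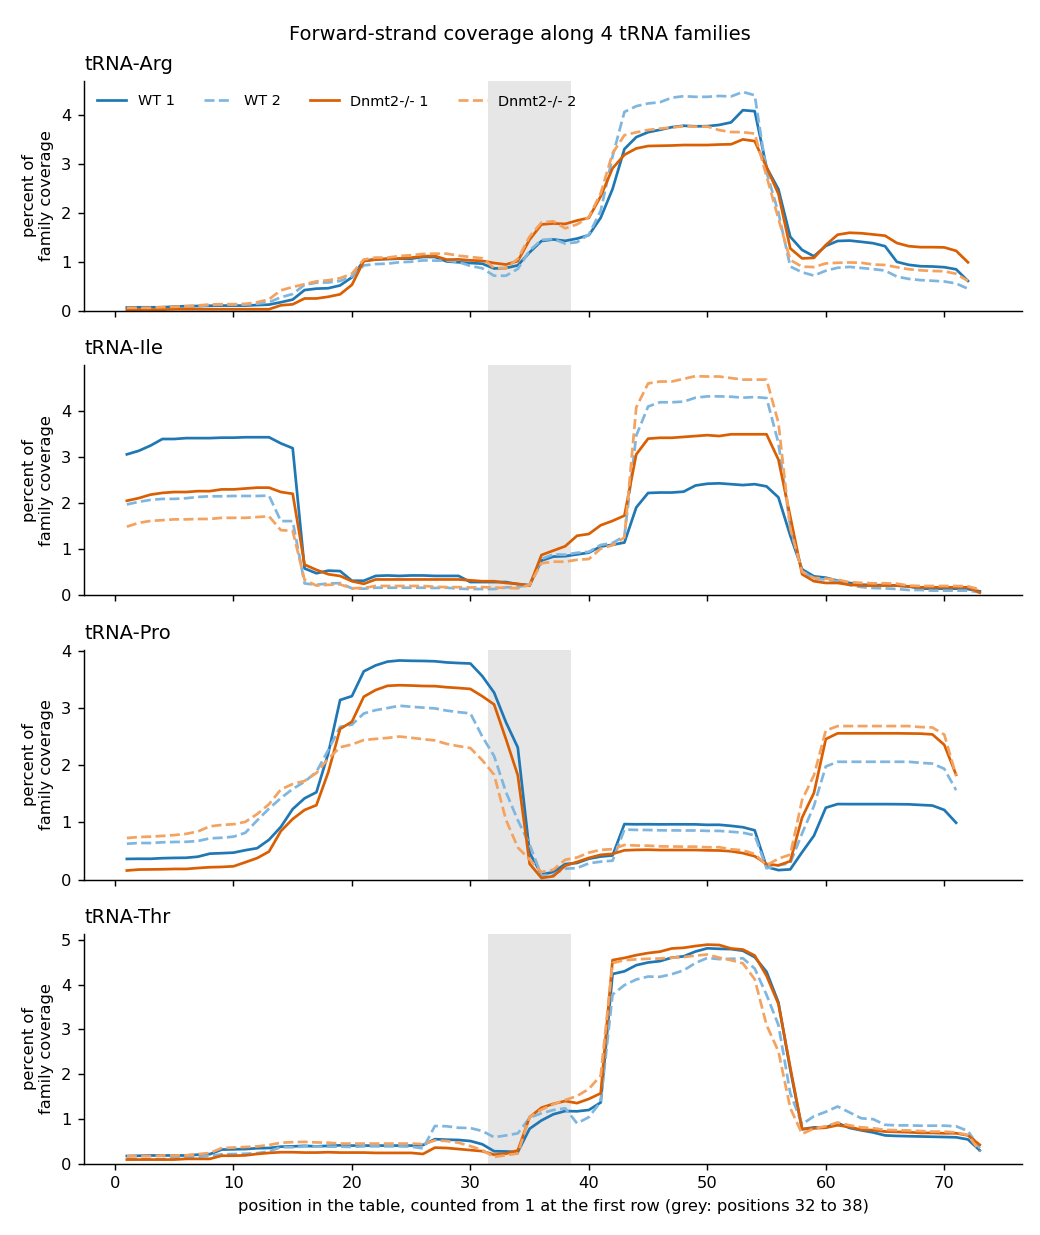
Forward-strand coverage at each position of the 4 families as a percentage of the family's coverage in that library, with a line per library and positions 32 to 38 in grey. Thr and Arg peak between positions 42 and 57, Ile has an additional 5′ stretch at positions 1 to 15, and Pro peaks before position 34 and again after position 58.

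In tRNA-Thr, which decodes the ACN codons, coverage was a single block. Positions 42 to 57 held 67.9% ± 3.36 (SD, n = 4 libraries) of the family, against 3.40% at positions 1 to 15 and 12.1% from position 58 to the end. The block opened abruptly: the reads went from 229 to 709 and from 210 to 573 between positions 41 and 42 in WT, and from 201 to 581 and from 310 to 705 in Dnmt2-/-. The highest position was 50 in both genotypes, with 0.00735 ± 0.00292 units in WT and 0.0144 ± 0.00877 units in Dnmt2-/- (SD, n = 2). Reads at position 34 were 5.47% and 14.8% of each library's highest position in WT and 6.08% and 4.90% in Dnmt2-/-. Thr was also the family whose profile varied least between libraries among the 4: Pearson's r over positions 1 to 70 was 0.984 to 0.997 between any 2 libraries.

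tRNA-Arg, which serves the CGN codons and a pair of AGN codons, had the same main block on a broader base. Positions 42 to 57 held 54.6% ± 4.49 (SD, n = 4) of its coverage, positions 58 to the end 15.2% and positions 16 to 31 a further 14.1%. Its highest position was 53 in WT (0.0168 ± 0.0104 units) and 48 in Dnmt2-/- (0.0209 ± 0.0170 units; SD, n = 2), but of the single libraries only Dnmt2-/- replicate 2 had it at 48, and the other 3 had it at 53. Position 34 was covered by 22.7% and 19.2% of the reads at the highest position in WT and by 29.1% and 28.2% in Dnmt2-/-, well above the Thr values. The mean Arg profile was most like that of Thr (r = 0.967 over 70 positions, highest of 22 other families) and then Phe (0.886). Thr in turn was most like Arg and then Phe (0.951).

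tRNA-Ile had 2 blocks of coverage with little between them. Positions 42 to 57 held 50.7% ± 12.98 (SD, n = 4) and positions 1 to 15 held 34.5% ± 11.01. The 5′ block carried 49.98% and 30.6% of the coverage in WT and 33.5% and 24.1% in Dnmt2-/-. In WT replicate 1 the highest position was 11; in each of the other 3 libraries it lay between positions 49 and 52, and on the group means it was 51 in WT (0.00495 ± 0.00463 units) and 49 in Dnmt2-/- (0.00917 ± 0.00959 units; SD, n = 2). The 5′ block closed after position 15, where reads went from 335 to 61 and from 227 to 36 in WT and from 116 to 35 and from 167 to 40 in Dnmt2-/-. Position 34 was covered by only 6.94% and 4.11% of the highest count in WT and 7.07% and 3.16% in Dnmt2-/-. Ile resembled Phe (r = 0.729) and Thr (0.685) most among the 22 other families, and its own libraries correlated at 0.624 to 0.986, the widest range among the 4.

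tRNA-Pro, which decodes the CCN codons, went the other way. Positions 16 to 31 held 44.9% ± 6.73 (SD, n = 4) of its coverage, positions 58 to the end 27.3% ± 7.97, and positions 42 to 57 only 9.79% ± 2.40. The highest position on the group means was 24 in both genotypes, with 0.0255 ± 0.00586 units in WT and 0.0226 ± 0.00874 units in Dnmt2-/- (SD, n = 2), although in Dnmt2-/- replicate 2 the highest position was 61. Coverage reached a low just past position 34 in every library, but in replicate 2 of both genotypes most of the decline came before position 34. From position 34 to position 36 the reads went from 1957 to 78 and from 748 to 48 in WT, and from 672 to 10 and from 230 to 54 in Dnmt2-/-. Position 36 was the lowest point between positions 20 and 50 in all 4 libraries. No family was close to Pro in shape. Its most alike families were Gln (r = 0.491) and His (0.465), and it correlated negatively with Arg (-0.28), Thr (-0.42) and Ile (-0.68), values that describe these profiles and share the same 4 libraries.

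Fragment starts were read from net rises, the increase in coverage over the position before, and fragment ends from net falls, the decrease to the position after. Both are lower bounds, since starts and ends at 1 position cancel, and dividing the coverage by the net rises gives an upper bound on the mean length. That bound was 15.6 to 17.5 positions for Ile, 16.1 to 18.5 for Pro, 17.6 to 19.1 for Thr and 19.7 to 23.7 for Arg across the 4 libraries. Each share below is a percentage of all net rises, or of all net falls, of the family in that library.

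Starts at the 5′ end, at positions 1 to 3, were frequent in Ile alone among the 4. They made up 55.6% and 32.2% of Ile starts in WT and 38.1% and 25.2% in Dnmt2-/-, beside a median of 52.6% over the 19 other families. Pro had 6.18% and 11.2% in WT and 2.84% and 13.9% in Dnmt2-/-. Thr had between 1.796% and 3.52%, and Arg between 0.592% and 1.59%, so full 5′ ends were rare in those families. On the mean of 4 libraries position 1 was the largest Ile start, with 52.4% and 30.7% in WT and 35.8% and 23.2% in Dnmt2-/-, but position 44 was larger in replicate 2 of both genotypes (33.96% in WT, 44.1% in Dnmt2-/-). The largest mean Ile net fall came after position 15, with 44.7% and 21.1% in WT and 26.8% and 16.6% in Dnmt2-/-, and in those same replicates the fall after position 56 was larger (28.1% in WT, 35.9% in Dnmt2-/-).

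Net ends in and just before the anticodon loop, after positions 30 to 38, were most frequent in Pro among the 4. Arg, Thr and Ile had net starts at positions 35 and 36, which hide ends after positions 34 and 35. Their low shares therefore do not show that loop ends were rare. In Pro the window held 62.8% and 49.7% of ends in WT and 53.3% and 40.1% in Dnmt2-/-, ranking 7th of the 23 families. Arg had 2.99% and 5.77% in WT and 2.25% and 8.71% in Dnmt2-/-. Thr had 4.77% and 9.55% in WT and 2.84% and 4.52% in Dnmt2-/-. Ile had 1.14% and 0.110% in WT and 1.99% and 0.392% in Dnmt2-/-, which is 1 to 7 reads in a library and the lowest mean of the 23 families; the median of the 19 others was 14.4%. Positions 13 to 21, inside the 5′ side of the molecule, held 52.7% and 32.8% of Pro starts in WT and 45.5% and 23.9% in Dnmt2-/-. Within the loop the single position 34 differed between libraries of the same genotype, with 31.4% and 7.46% of Pro ends in WT and 24.99% and 3.92% in Dnmt2-/-.

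Starts 3′ of the anticodon, at positions 41 to 44, were shared by Thr, Arg and Ile. Only the start window at positions 1 to 3 and the end window at 30 to 38 belong to the tests. All other start and end windows were chosen after the profiles had been seen and are descriptions only. They include positions 13 to 21 above and 35 to 36, 58 to 60 and 69 to 71 below. Thr had 61.5% and 54.2% of its starts there in WT and 61.4% and 54.1% in Dnmt2-/-, the highest mean of the 23 families. Arg had 42.6% and 51.6% in WT and 33.6% and 40.1% in Dnmt2-/-. Ile had 16.8% and 39.3% in WT and 30.1% and 51.4% in Dnmt2-/-, so the low library was again WT replicate 1. The median over the 19 other families was 2.21%, and Phe was the highest of them at 55.3%. In Thr position 42 was the leading start in every library (42.3% to 56.9%). In Arg position 42 led on the mean of 4 libraries (12.5% to 21.9%), although in WT replicate 1 position 43 was larger (17.4%). In the 3′ stretch of Ile the leading start was position 44 (13.1% to 44.1%). Ends after positions 54 to 57 made up 61.4% to 74.1% of Thr ends, 56.8% to 71.2% of Arg ends and 31.6% to 65.1% of Ile ends, beside a median of 4.61% in the 19 other families. In Thr the leading end was after position 56 in every library (23.7% to 28.5%). In Arg the ends after positions 54 and 56 tied on the mean of 4 libraries (both 22.1%), and position 54 led in 3 of them (24.5% and 30.9% in WT and 20.3% in Dnmt2-/- replicate 2, against 12.7% in Dnmt2-/- replicate 1). Pro had little of either, with 2.28% to 10.3% of starts at positions 41 to 44 and 2.58% to 11.9% of ends after positions 54 to 57.

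**Figure D2:**
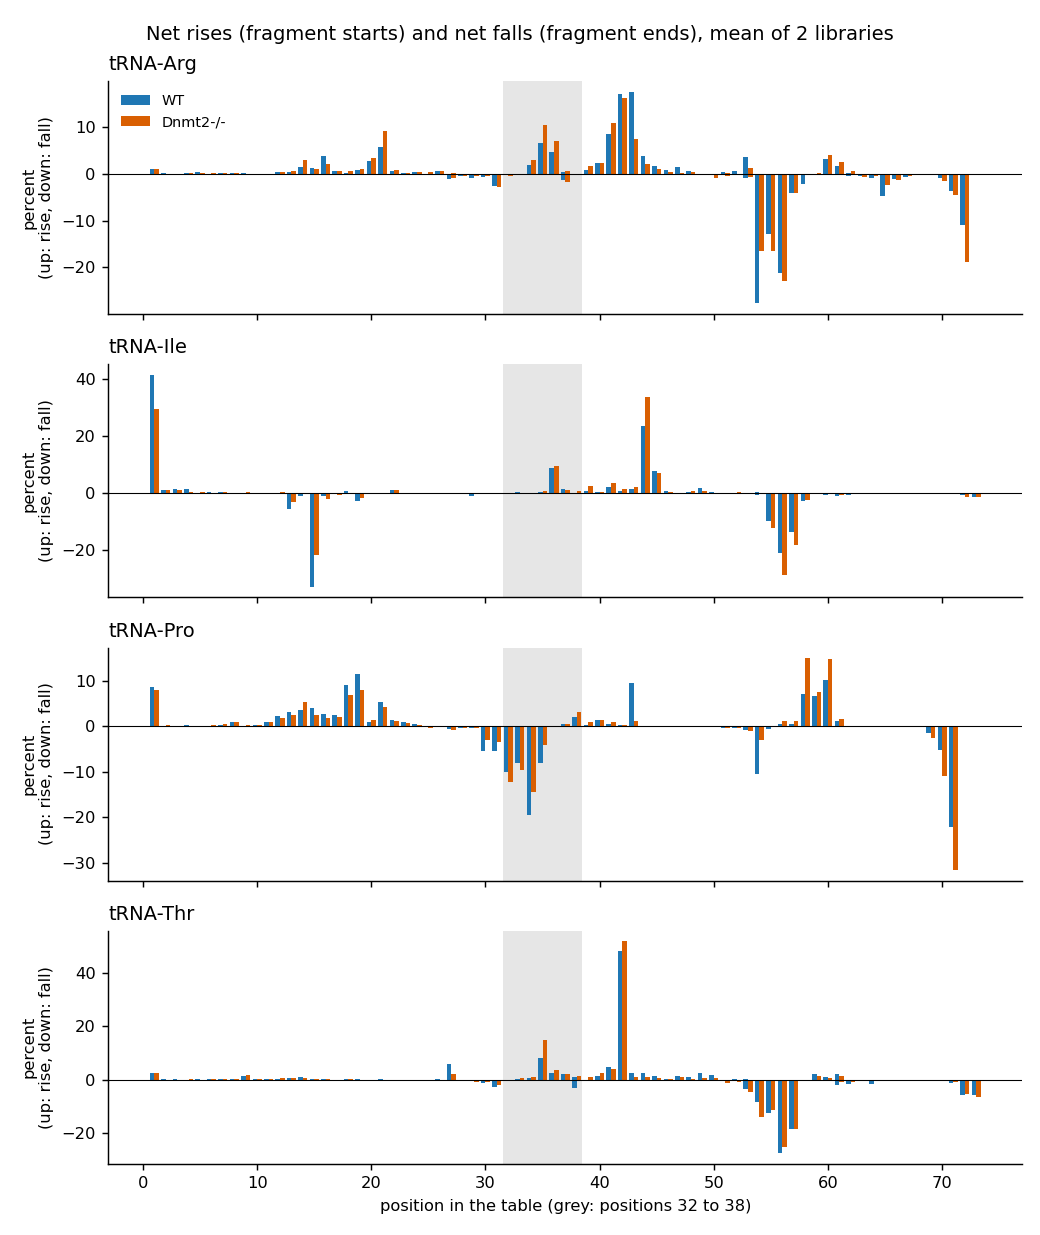
Net rises (upward, fragment starts) and net falls (downward, fragment ends) at each position as a percentage of the family's rises or falls, as the mean of 2 libraries per genotype. Thr, Arg and Ile share starts at positions 41 to 44 and ends after positions 54 to 57, while Pro starts most at positions 13 to 21 and 58 to 60 and ends in the loop and near the 3′ end.

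A smaller set of starts lay at positions 35 and 36. These positions 35 and 36 held 13.4% and 7.92% of Thr starts in WT and 18.3% and 18.3% in Dnmt2-/-. In Arg they held 10.6% and 11.7% in WT and 17.8% and 17.2% in Dnmt2-/-. Ile had 9.14% and 9.48% in WT and 11.6% and 8.49% in Dnmt2-/-, nearly all of it at position 36. Pro had no net rise there in any library. Its coverage fell at this place, with 17.0% of net falls after position 34 and 5.97% after position 35 (means of 4 libraries). Any Pro starts at positions 35 and 36 would thus be hidden. Pro had net starts close to the 3′ end. Positions 58 to 60 held 18.4% and 29.6% of its starts in WT and 34.4% and 40.1% in Dnmt2-/-, and by its mean Pro ranked second of the 23 families, behind Trp at 33.4%. Ends after positions 69 to 71 made up 22.05% and 35.5% of Pro ends in WT and 40.9% and 49.1% in Dnmt2-/-, and position 71, the last of the Pro table, was the largest Pro end on the mean of 4 libraries (16.9% to 33.6%) and in each but WT replicate 1, where the end after position 34 was larger (31.4%).

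By level, given as mean coverage per position so that families of unlike length compare, Pro was highest of the 4 (0.0112 units, mean of 4 libraries, 11th of 23), then Arg (0.00662, 14th), Thr (0.00316, 16th) and Ile (0.00228, 17th). The differences were tested within libraries, with limma over every pair of the 23 families and Benjamini-Hochberg adjustment over all of them, genotype as a term; 88.1% of all pairs passed an adjusted p of 0.05, so a pass says little about these families in particular. Of the 6 member pairs 5 passed. Pro exceeded Arg by 0.87 on the log2 scale (SE 0.19, adjusted p = 0.0133), and Arg exceeded Thr by 1.04 (SE 0.18, adjusted p = 0.00558). Pro exceeded Thr by 1.91 (SE 0.16, adjusted p = 0.000566) and Ile by 2.52 (SE 0.27, adjusted p = 0.00117), and Arg exceeded Ile by 1.65 (SE 0.19, adjusted p = 0.00149). Thr and Ile, neighbours in this order, differed by 0.61 (Ile minus Thr, 95% interval -1.28 to 0.070, adjusted p = 0.0750), which did not pass. With the highest position in place of the mean, 3 of the 6 passed, as also without WT replicate 2; Pro against Arg and Arg against Thr were the pairs lost, and Pro against Arg also missed without WT replicate 1 (adjusted p = 0.103), while all 6 passed without Dnmt2-/- replicate 2.

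The share of coverage at positions 1 to 34 separated the families in the same kind of fit, on log2 odds, where 83.4% of all pairs passed and again 5 of the 6 member pairs. In this fit limma pooled the spread over all pairs, which overlap in their families. The small p-values below therefore do not rest on the spread of the 4 libraries alone. Pro was above Thr by 3.69 (SE 0.53, adjusted p = 4.79e-09) and above Arg by 2.80 (SE 0.53, adjusted p = 2.89e-06), with the same order in all 4 libraries. Ile was above Thr by 2.41 (SE 0.54, adjusted p = 4.79e-05) and above Arg by 1.53 (SE 0.54, adjusted p = 0.00763), and Pro was above Ile by 1.27 (SE 0.53, adjusted p = 0.0244). Arg and Thr differed by 0.89 (95% interval -0.17 to 1.95, adjusted p = 0.113), so the pair with the most alike profiles was also the pair that did not pass. The 2 closer Ile contrasts rested on single libraries: Pro against Ile missed the threshold without WT replicate 1 (adjusted p = 0.0633), WT replicate 2 (0.142) or Dnmt2-/- replicate 2 (0.105), and Arg against Ile missed it without WT replicate 1 (0.126) or Dnmt2-/- replicate 1 (0.0752). Pro against Ile also missed it with the stretch taken as positions 1 to 30 (Ile minus Pro -0.80, adjusted p = 0.0891).

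**Figure D3:**
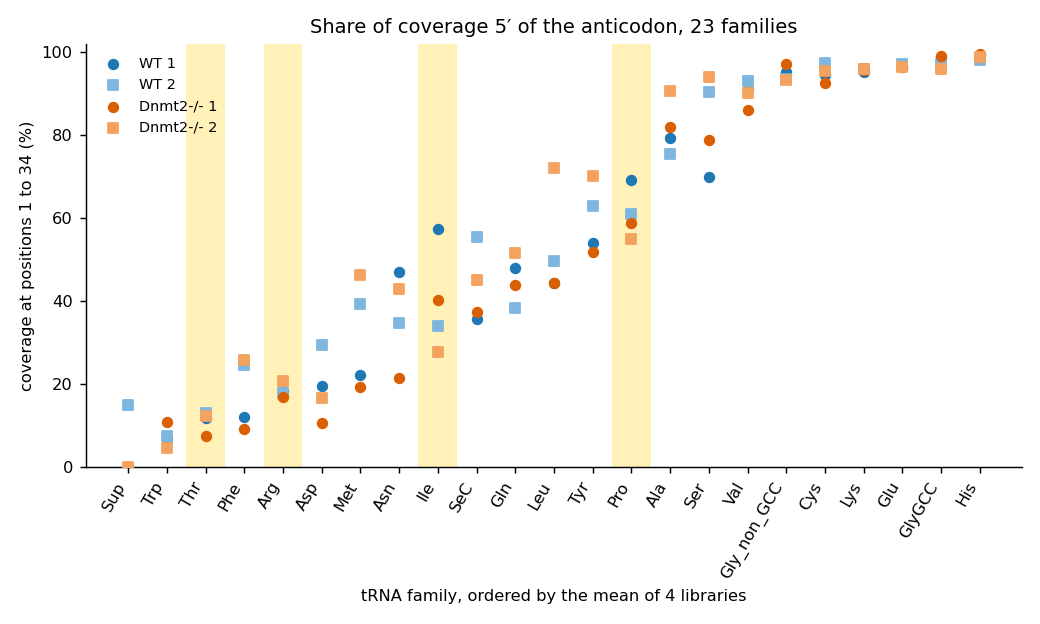
Share of each family's coverage at positions 1 to 34, in percent, for 23 tRNA families ordered by the mean of 4 libraries, with a point per library and the 4 families shaded. Thr (7.39% to 13.05%) and Arg (17.0% to 20.7%) lie near the low end, Ile spreads from 27.8% to 57.5%, and Pro lies between 55.1% and 69.1%.

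Between genotypes, no summary of the 4 families passed limma's test with adjustment over the 23 families, and 0% of all families passed for any of the 5 summaries. The libraries as deposited differ by a shift common to most families, since the median difference over all 23 families was 0.47 on the log2 scale (Dnmt2-/- minus WT). The family totals of Arg were 0.230 and 0.540 units in WT and 0.263 and 0.874 in Dnmt2-/-, a log2 difference of 0.45 (SE 0.92, adjusted p = 0.973). Pro had 0.557 and 0.974 units in WT and 0.484 and 1.15 in Dnmt2-/- (0.02, SE 0.80, adjusted p = 0.981). Thr had 0.110 and 0.205 units in WT and 0.168 and 0.441 in Dnmt2-/- (0.85, SE 0.83, adjusted p = 0.973), and Ile had 0.0691 and 0.191 in WT and 0.0693 and 0.336 in Dnmt2-/- (0.41, SE 1.04, adjusted p = 0.973). The genotypes overlapped in all 4 families, whereas both Dnmt2-/- libraries lay above both WT libraries in 21.7% of the 23 families. The median of the 4 was 0.43, close to the 0.47 of all families, and with libraries rescaled to the median family the Thr difference was 0.42, Arg 0.0077, Ile -0.028 and Pro -0.42. No test of a genotype difference passed at an unadjusted p of 0.05 for any of the 4 in any of the 5 summaries, and of all 23 families 1 did so, for the share at positions 1 to 34. That family, labelled Sup, was near the floor, with 5 and 5 reads at its highest position in WT and 4 and 1 in Dnmt2-/-.

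**Figure D4:**
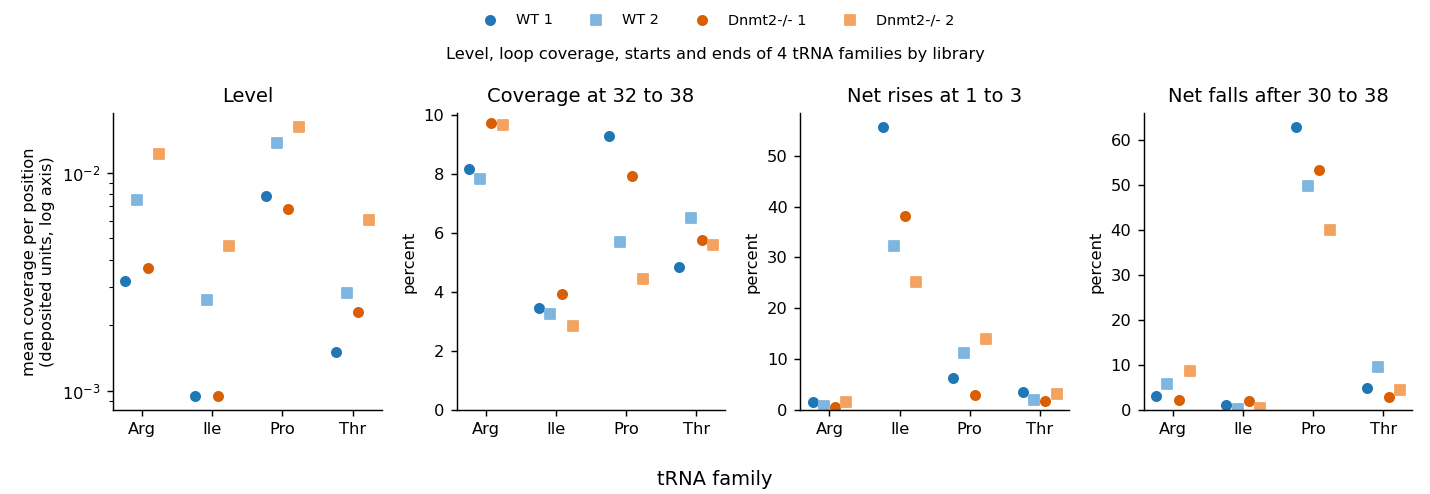
Values of the 4 families with a point per library: mean coverage per position (deposited units, log axis), and in percent the coverage at positions 32 to 38, net rises at positions 1 to 3 and net falls after positions 30 to 38. The genotypes overlap in level in every family, and for the stretch at 32 to 38 Arg is the family of the 4 in which they do not (7.82% and 8.18% in WT, 9.65% and 9.72% in Dnmt2-/-).

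For the share of coverage at positions 1 to 34, Pro had both Dnmt2-/- libraries (56.9% ± 2.63) below both WT libraries (65.0% ± 5.74; SD, n = 2), as did 13% of all families; the log2 odds difference was -0.50 (SE 0.72, adjusted p = 0.970). The genotypes overlapped in Arg (0.066, SE 0.71), Ile (-0.71, SE 0.76) and Thr (-0.43, SE 0.72). Of the 4, 3 were below 0, with a median of -0.46 beside -0.027 over all families and 0.71 over Ala, Leu, Ser and Val. Coverage of the loop itself, at positions 32 to 38, was 8.18% and 7.82% of Arg in WT and 9.72% and 9.65% in Dnmt2-/- (log2 odds 0.30, SE 0.17, adjusted p = 0.731). Arg was the only family of the 23 (4.35%) with both Dnmt2-/- libraries above both WT libraries in this share, while 34.8% had both below. The loop shares of Ile (2.84% to 3.92%), Pro (4.43% to 9.28%) and Thr (4.85% to 6.50%) overlapped between genotypes.

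Shares of starts and ends gave the same picture. 5′ starts overlapped between genotypes in Ile (log2 odds -0.76, SE 1.01, adjusted p = 0.957) and in the other 3 families. In this fit limma pooled the spread fully and gave every family the same SE. That SE and the p-value therefore do not measure the spread of the Ile libraries. Loop ends of Thr were lower in both Dnmt2-/- libraries than in both WT libraries (-0.96, SE 0.75, adjusted p = 0.963), as in 8.7% of all families. The share counts net falls, so ends hidden by Thr starts at positions 35 and 36 are not in it. The loop ends of Pro overlapped (-0.57, SE 0.74). Whether the effect of genotype differed between 2 families was tested over the same pairs of families: none passed for level or for the share at positions 1 to 34, where 4 and 7 pairs had an unadjusted p under 0.05, none of them between 2 of these families. The strongest member pair was Pro against Thr in level, whose genotype differences differed by -0.84 (SE 0.32, unadjusted p = 0.0599, adjusted p = 0.991).

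At single positions, none of the 1656 passed the genotype test and none had an unadjusted p under 0.05. Estimates lay above 0 at 66 of 72 Arg positions, 60 of 73 Ile positions and 69 of 73 Thr positions, beside 1383 of the 1656 in all families, but at only 23 of 71 Pro positions. At 5 positions of Arg, 4 of Thr and none of Ile or Pro, both Dnmt2-/- values were above both WT values, beside 17.1% of all positions; both lay below at 2 Pro positions, beside 0.302%. The largest estimates at positions where same-numbered libraries differed in 1 direction were position 40 in Thr (1.29, SE 0.81), 58 in Pro (0.99, SE 0.92), 72 in Arg (0.97, SE 0.74) and 44 in Ile (0.84, SE 1.22), each with an adjusted p of 0.999. Reads behind them were 201 and 158 in WT against 185 and 263 in Dnmt2-/- for Thr, and 405 and 582 against 399 and 572 for Pro. In reads, which are not corrected for depth, the genotypes overlapped at both positions. The estimates also move with the constant per library: with libraries rescaled to the median family they were 0.86 (Thr) and 0.56 (Pro). Taken as a percentage of the family's coverage, which is free of that constant, in a fit added after the data had been seen, again none of the 1656 positions passed (lowest adjusted p = 0.940). On that scale 60 of the 1656 positions had an unadjusted p under 0.05, among them 13 of the 71 Pro positions and none in Arg, Ile or Thr. Neighbouring positions are covered by the same reads, so the 13 are not separate results. Both Dnmt2-/- libraries then lay above both WT libraries at 19 positions of Arg, 5 of Ile, 20 of Pro and 13 of Thr, beside 14.7% of all positions, and below at 8, 1, 15 and 8, beside 15.9%.

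Net rises and falls per position were tested in the same way as percentages of the family, also in fits added afterwards. None of the 864 positions with a net rise and none of the 904 with a net fall passed, while 46 rises and 39 falls had an unadjusted p under 0.05. For rises these included 4 of 50 positions in Arg, 4 of 41 in Ile, 2 of 41 in Pro and 2 of 44 in Thr. For falls they included 4 of 29 in Arg, 2 of 41 in Ile, 1 of 33 in Pro and 5 of 38 in Thr. Within the 4 families the lowest adjusted p for a net rise was 0.386, in both Pro and Ile, beside 0.0718 over all families. For a net fall it was 0.885 in each of the 4, beside 0.197 over all families. The position described first, named after its value was seen, was the start at position 43 of Pro. It held 9.35% of Pro starts in WT replicate 1 (exact 95% interval 8.56% to 10.2%, 465 reads) and 9.55% in WT replicate 2 (8.67% to 10.5%, 393 reads). In Dnmt2-/- it held 1.01% (0.639% to 1.51%, 23 reads) and 1.35% (0.913% to 1.92%, 30 reads). The genotypes were well apart by counting error, with a log2 difference of -2.91 (SE 0.36, unadjusted p = 0.00240, adjusted p = 0.386), and both Dnmt2-/- libraries lay below both WT libraries at 12.7% of all positions with a net rise.

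The end after position 54 of Pro held 10.9% and 10.1% of Pro ends in WT (543 and 416 reads) against 2.19% and 3.65% in Dnmt2-/- (50 and 81 reads), a log2 difference of -1.86 (SE 0.37, adjusted p = 0.885); both Dnmt2-/- libraries lay below both WT libraries at 13.5% of all positions with a net fall. At the edge itself, Pro reads went from 356 to 821 and from 237 to 630 between positions 42 and 43 in WT, but only from 165 to 188 and from 218 to 248 in Dnmt2-/-. The stretch between these edges, positions 42 to 57, held 12.4% and 11.2% of Pro coverage in WT and 7.28% and 8.29% in Dnmt2-/-, and the stretch from position 58 on held 16.5% and 26.04% against 32.2% and 34.3%. Neither stretch was tested as a whole. Both are shares of the same total and draw on the same reads as the edges, so they are not separate results. Starts at position 43 were also lower in Dnmt2-/- in Arg, with 17.4% and 17.9% in WT (285 and 362 reads) against 6.51% and 8.56% (55 and 115 reads; -1.23, SE 0.36, adjusted p = 0.784). The neighbouring start at position 42 of Arg overlapped between genotypes, with 12.5% and 21.9% in WT and 13.6% and 18.9% in Dnmt2-/-. At position 43 the genotypes overlapped in the other members. Ile had 0.816% and 2.32% in WT and 1.99% and 2.61% in Dnmt2-/-. Thr had 1.14% and 3.73% in WT and 0.898% and 1.19% in Dnmt2-/-.

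Starts at position 35 had the opposite order. In Arg they were 5.67% and 7.40% in WT and 10.4% and 10.6% in Dnmt2-/- (log2 difference 0.69, SE 0.36, adjusted p = 0.978). In Thr they were 9.89% and 6.17% in WT and 14.2% and 15.3% in Dnmt2-/- (0.91, SE 0.42, adjusted p = 0.978). The genotypes did not overlap in either, as at 10.4% of all positions with a net rise. Over all its positions with a net rise, Arg had 8 with both Dnmt2-/- libraries above both WT libraries and 6 with both below, of 50. Pro had 10 and 2 of 41, Ile 6 and 5 of 41, and Thr 2 and 7 of 44. The shares over all families were 10.4% above and 12.7% below.

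**Figure D5:**
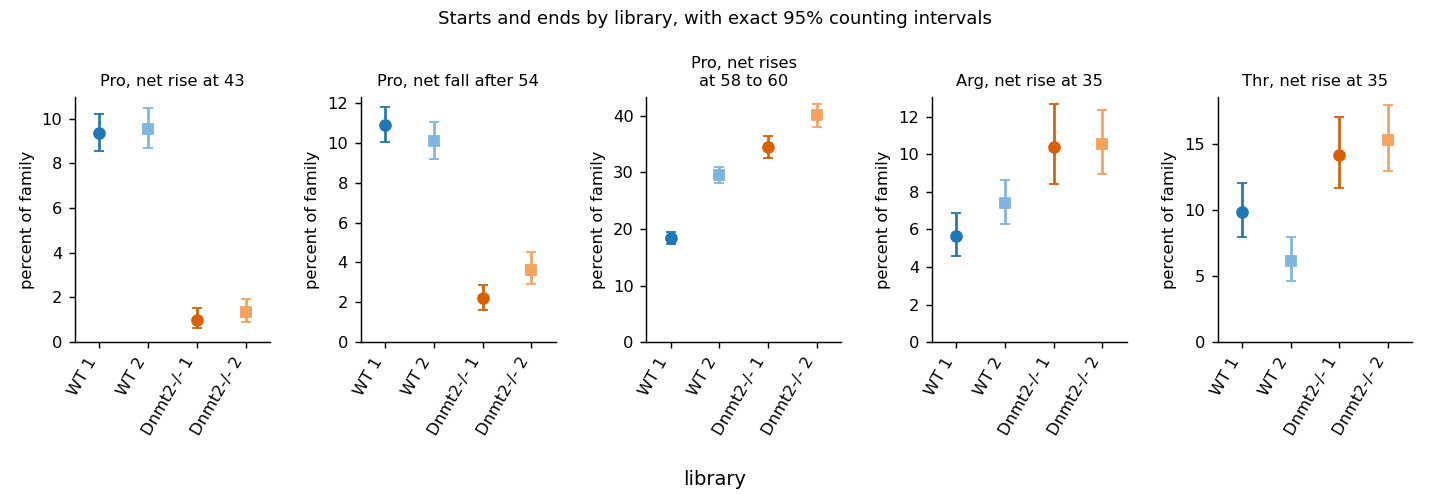
Starts and ends at single positions in each library, as a percentage of the family's net rises or falls, with exact 95% counting intervals as bars. The Pro start at position 43 is 9.35% and 9.55% in WT against 1.01% and 1.35% in Dnmt2-/-, and the Pro end after position 54 is 10.9% and 10.1% against 2.19% and 3.65%, while Pro starts at positions 58 to 60 and starts at position 35 of Arg and Thr are higher in both Dnmt2-/- libraries than in both WT libraries. The window at positions 58 to 60 was chosen after the profiles had been seen and was not tested as a whole.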

How the data were processed

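Small RNA coverage of tRNA families in bone marrow was analysed in 2 WT and 2 Dnmt2-/- libraries. The deposited values are a coverage signal per position and strand; CASAVA 1.8.3 and Bowtie are named in the submitters' processing notes, while no source used here gives the build, the scaling of each library or how reads matching more than 1 tRNA gene were assigned. Every forward value lay within 0.01 of a whole multiple of its library's step, taken as 1 read. Because the values are a signal and not counts, limma 3.58.1 (R 4.3.3) was fitted over all families or positions with genotype as the term, two-sided, with Benjamini-Hochberg adjustment and a threshold of 0.05. Values were log2(total + 0.001), log2(coverage + 1e-04), or log2 odds of shares with 1e-05 units added to both sides; fold changes of low values are understated on these scales. Percentages per position, fitted on log2(percent + 0.1), were added after the data had been seen. The scripts were tested on simulated data. Counting intervals are exact (Clopper-Pearson, 95%; scipy 1.17.1). The members and lists were chosen with earlier results of these data known. Named positions were each family's peak, largest net rise and fall, and largest limma estimate among positions where both same-numbered differences had 1 sign; the other positions were chosen after their values were seen. The 8 columns of whole glycine tables were not used. Alternatives were other pseudocounts, windows, scalings and filters, a replicate block, and leaving out each library.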

Additional observations from a re-analysis of the deposited data

How the results depend on the processing

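Of 444 alternative values, 389 kept their direction and their side of the threshold, 37 changed sign, 11 lost and 1 gained the threshold, and 6 counts of calls moved; every sign change was in a genotype difference that had not passed. Rescaled to a common summed coverage, the Pro total differed by -0.35, and rescaled to a common median family, by -0.42 (Ile -0.028). A pseudocount of 0.001 gave a Thr loop share of -0.058, a loop window of 34 to 40 gave Ile 0.055, and 5′ starts at position 1 alone gave Arg 0.071. Leaving out each library, log2 differences ranged in family totals from -0.42 to 1.31 (Arg), -0.72 to 1.54 (Ile) and -0.60 to 0.64 (Pro); in the share at positions 1 to 34 from -0.11 to 0.24 (Arg); in loop shares from -0.25 to 0.23 (Ile), -0.76 to 0.14 (Pro) and -0.21 to 0.24 (Thr). For 5′ starts they ranged from -0.75 to 0.41 (Arg), -1.62 to 0.82 (Pro) and -0.58 to 0.36 (Thr), and for loop ends from -0.89 to 1.11 (Arg) and -0.49 to 2.38 (Ile). At single positions they ranged from -0.48 to 2.16 in coverage at Ile 44, from -0.086 to 1.29 for starts at Ile 44, from -0.077 to 0.29 for starts at Thr 42, from -1.08 to 0.0022 for ends after Ile 15 and from -1.94 to 0.70 for ends after Pro 34. The start at position 43 of Pro kept its direction, from -3.11 to -2.27, with adjusted p from 0.141 to 0.687. Of the 6 member pairs, 3 to 6 passed for level and 3 to 4 for the share at positions 1 to 34 without a library, and 3 for level at the highest position. Without Dnmt2-/- replicate 1, 1 family (Phe) passed for the loop share, so the calls of that fit ranged from 0 to 1. The cause of these changes was not tested. Same-numbered WT and Dnmt2-/- libraries shared a number in the labels and were deposited together, but what the number marks is not stated. Their deviations correlated at 0.862 for totals and 0.602 for the share at positions 1 to 34. With 2 pairs the pairing could not be settled, and the main fits did not use it. With the replicate block, 2 families passed for the total (Gln and His) and 1 for the share at positions 1 to 34 (Sup, a family so named in the tables), none of them among the 4. Leaving out low families kept 20 of 23, and 1536 positions had a mean of 10 reads or more; neither filter changed a call. Depth limits the rare classes, such as the 1 to 7 reads of Ile that ended in the loop.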

Other observations

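Coverage on the reverse strand was low for the 4 families. It was 0.0361% to 0.0625% of the forward coverage for Pro, 0.125% to 0.853% for Ile, 0.286% to 0.912% for Arg and 0.655% to 2.56% for Thr over the 4 libraries.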
